A study of Mus musculus with 12 samples.

Results

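A set of 188 genes was almost without mRNA in LPS-activated mouse B cells and present after etoposide, of 29486 genes measured in all. They were selected on the deposited table of normalized counts: each library column was scaled to 1000000 counts (CPM), the mean of the 4 columns of a condition was taken, and a gene was kept when its mean was below 0.5 CPM with LPS and at least 2 CPM with LPS and etoposide. Notch3 and genes named Ighv, Igkv or Iglv were left out by name. The levels with LPS and with etoposide therefore chose the members and are given as a description, whereas the level with the inhibitor KU55933 took no part in the choice.

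Total polyadenylated RNA had been sequenced from B cells isolated from the spleens of C57BL/6Babr mice, in 4 biological replicates of each of 3 conditions. All cells received LPS at 10 µg/ml, a bacterial product that activates B cells. The condition abbreviated LPS had LPS for 48 h and nothing more. The condition LE received etoposide at 20 µM for 4 h after 48 h with LPS, and the condition LEKU received KU55933 at 10 µM for 1 h before the same etoposide treatment, after 47 h with LPS. There was no condition with KU55933 and no etoposide, and whether the LPS cultures were kept for another 4 h is not given in the sources used here.

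Etoposide traps topoisomerase II on DNA and leaves double-strand breaks. Such breaks activate the kinase ATM, which phosphorylates many proteins, among them the transcription factor p53 and its inhibitor Mdm2, and p53 then binds its response elements and raises transcription of nearby genes. KU55933 inhibits the kinase activity of ATM. A response to breaks can also run through the related kinases ATR and DNA-PK.

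Column totals ranged from 20.4 to 30.6 over the 12 libraries, in units of 1000000 fitted counts. Within a condition the columns were proportional across all genes (the log2 ratio of a pair varied by at most 1.4e-14), so each column is 1 fitted value of the condition times a factor of the library. After scaling, the 4 columns of a condition were identical. The table therefore holds no spread between replicates, no difference could be tested against replicate error from it, and intervals cover counting error only. The fit had been moderated and left no value at 0, so that the table does not show whether a member had any read at all with LPS, and ratios to LPS rest on fitted values of 1.65 to 11.1 counts per library. The libraries of each condition carried sequencing indexes used in no other condition, so that index and condition cannot be told apart. In RNA from whole cultures, more cells expressing a gene and more RNA per cell cannot be told apart either.

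B cell identity was checked with a list of markers. The 5 B cell markers were abundant in every condition, with summed levels of 7194, 5831 and 6288 CPM with LPS, LE and LEKU. The 4 fibroblast markers summed to 0.350, 0.585 and 0.481 CPM in the same order, the 4 neutrophil markers to at most 0.0663 and the 2 NK cell markers in the table to at most 0.0633. T cell genes Cd3e, Cd3d, Cd4 and Cd8a were each at most 0.158 CPM, whereas the fifth listed, Lck, was 16.7, 12.7 and 12.0. The 6 macrophage and monocyte markers summed to 16.5, 20.2 and 19.2 CPM, and no marker of any of the 10 cell type lists was a member. The platelet list went from 2.55 to 19.4 and 11.5 CPM, through Itga2b at 1.49, 16.4 and 7.94 CPM, whereas Pf4, its defining chemokine, was 0.312, 0.319 and 0.599. The dendritic cell list summed to 111, 71.5 and 131 CPM, nearly all of it Flt3, whereas Itgax and Siglech were each at most 0.223. The endothelial list summed to 147, 47.4 and 87.2 CPM, nearly all of it Pecam1, whereas Cdh5 and Kdr were each at most 2.29. The red cell list summed to at most 3.93 CPM. The part of other cells in the levels below was not tested.

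The members were low in abundance even with etoposide. Their LE levels ran from 2.00 to 52.0 CPM with a median of 3.46, and 67 of the 188 were below 3 CPM, whereas 54 reached 5 and 19 reached 10. Per kilobase of exon, the median member had an LE level of 1.05 CPM per kb, beside 8.54 over the genes with at least 2 CPM in LE. The ratio of LE to LPS ran from 4.17 to 213 with a median of 16.8, and quartiles of 10.1 and 29.3. Of the 12245 genes at 2 CPM or more in LE, 5.35% were at least 4-fold above LPS, and nothing is read from this beside the members, whose choice fixed that ratio. The members made up 1.54% of those 12245 genes, and 1.21% of the 15588 genes below 0.5 CPM with LPS.

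**Figure D1:**
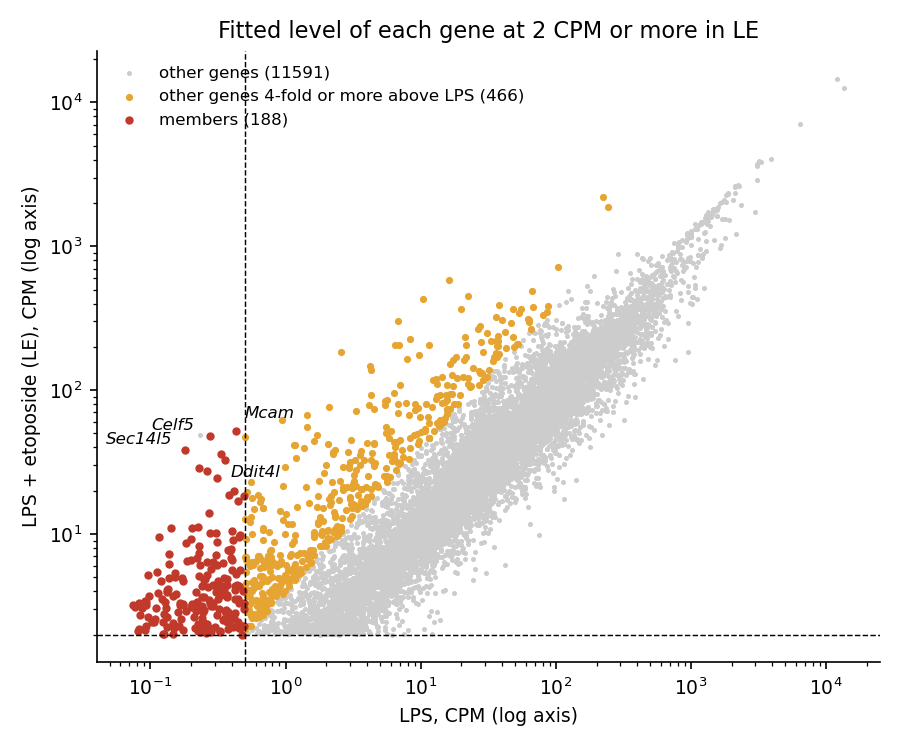
Fitted level with LPS (x axis) and with LPS and etoposide (y axis), in CPM on log axes, for each of the 12245 genes at 2 CPM or more in LE. Dashed lines mark 0.5 CPM with LPS and 2 CPM in LE, the 188 members fill the corner they bound, and the 1 grey point in that corner is the gene left out by name. Other genes at least 4-fold above LPS, 466 in number, continue the cloud to the right.

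The LPS threshold cut through a continuous range of values. Lmtk3 and Stox1 lay just inside, with 0.496 and 0.494 CPM with LPS, while Slc4a11 and Thsd1 lay just outside, both with 0.504. Slc4a11 reached 47.2 CPM in LE, which is within the range of the 3 highest members in LE, and stood at 17.6 in LEKU. At the LE threshold, Olfml2a and D630023F18Rik were just inside with 2.00 and 2.01 CPM, and 9230110C19Rik and Ptger2 were just outside, both with 1.98.

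Sec14l5, which encodes a SEC14-like protein of a lipid-binding family, had the largest ratio of LE to LPS. Its fitted counts were 3.73, 4.13, 4.30 and 3.88 in the 4 LPS libraries, 864, 968, 1172 and 938 in the LE libraries, and 157, 177, 189 and 193 in the LEKU libraries. The choice of members fixed that LPS lay below LE, and the differences within each condition follow the library factors alone. Sec14l5 stood at 0.180 CPM with LPS, 38.3 in LE and 7.69 in LEKU, so that KU55933 left 20.0% of the etoposide level (95% counting interval 18.5 to 21.7%). Celf5, an RNA-binding protein of the CELF family that regulates splicing and is known mainly from neurons, had fitted counts of 5.71, 6.33, 6.59 and 5.94 with LPS. They were 1081, 1212, 1468 and 1175 in the LE libraries and 241, 271, 291 and 296 in the LEKU libraries. Celf5 thus stood at 0.275, 48.0 and 11.8 CPM, and 24.6% of the etoposide level was left (23.0 to 26.3%). For both genes the LEKU level was far below LE and still far above LPS.

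The 150 bases before the RefSeq start (GRCm38.p6) of Sec14l5 and before the start of Celf5 that lies farthest upstream are printed to show how base composition varied between starts, with CG dinucleotides in capitals. The Sec14l5 stretch is chr16:5146959-5147108 on the plus strand and holds 6 CG dinucleotides. The Celf5 stretch is chr10:81482700-81482849 on the minus strand and holds 16. Celf5 has 5 RefSeq starts, and windows of 300 bases around them held from 11 to 23 CG dinucleotides, the most at the start shown, beside 10 in the window of Sec14l5.
Sec14l5: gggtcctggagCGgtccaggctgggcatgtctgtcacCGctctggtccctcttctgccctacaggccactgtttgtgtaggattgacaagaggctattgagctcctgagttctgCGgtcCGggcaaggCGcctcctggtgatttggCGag
Celf5: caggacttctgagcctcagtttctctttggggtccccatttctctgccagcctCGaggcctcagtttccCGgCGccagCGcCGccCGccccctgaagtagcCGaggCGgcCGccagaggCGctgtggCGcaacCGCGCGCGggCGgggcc
RefSeq promoter windows of 300 bases, from 250 before to 50 after a start, matched 126 of the 188 members with 175 windows. The median window held 13 CG dinucleotides (quartiles 6 and 24), beside 21 (12 and 29) over the 10885 windows of genes at 2 CPM or more in LE and 7 (3 and 20) over all 32851 windows of the table. The 422 windows of the other genes at least 4-fold above LPS had a median of 18. The letters TATAAA, on either strand, were in 8.57% of member windows, 6.56% of the windows of genes at 2 CPM or more in LE and 13.6% of all windows.

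The windows were also searched for the p53 response element, which is a pair of the consensus half-sites of p53 with a spacer of 0 to 13 bases, allowing at most 2 mismatches in all and none at the core C and G of each half-site. Such a match was in 8 of 175 member windows, or 4.57%, beside 4.09% of all windows, 3.83% of those of genes at 2 CPM or more in LE and 4.74% of those of the other genes at least 4-fold above LPS. The share of members is near that of all promoters at this limit. With at most 1 mismatch, a match was in 2 member windows, or 1.14%, and in 0.627% of all windows. The share was 0.450% for genes at 2 CPM or more in LE and 1.42% for other genes at least 4-fold above LPS. Nothing is read from so few windows, and matching letters are a description and do not show a bound site. Both matches with 1 mismatch and, as an example, 1 of the 6 with 2 mismatches are printed, with the half-sites in capitals: 1700007K13Rik (chr2:28466285-28466305, minus strand, from 20 bases into the transcript) and Ahnak2 (chr12:112795700-112795721, minus strand, from base 22) with 1 mismatch each, and the example Apol8 (chr15:77757111-77757138, minus strand, from 128 bases before the start) with 2. The other windows with 2 mismatches belong to Arhgef10l, D630023F18Rik, Espnl and Pla2g4f. Those of Arhgef10l overlap and hold the same element, which is thus counted more than once.
1700007K13Rik: AGACTTGATCtGGGCTAGTTT
Ahnak2: AGACAAGTTTggGAACGTGTCC
Apol8: AGACAAGCATttaaaacgTAGCTTGTCT
The gene 1700007K13Rik was among the 10 members with the highest level in LE, at 0.229, 28.7 and 8.90 CPM with LPS, LE and LEKU, and 31.0% of its etoposide level was left (28.7 to 33.5%). It had the highest level per kilobase of all annotated members in LE, 29.7 CPM per kb. Ahnak2, which encodes a very large scaffold protein, stood at 0.219, 6.79 and 1.69 CPM. Apol8 of the apolipoprotein L family stood at 0.132, 2.65 and 0.725.

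With KU55933 most members stood far below their etoposide level and above LPS. The median member kept 37.4% of its LE level, with quartiles of 24.0% and 57.0%. The LEKU level was at or below 0.5 of LE in 128 of 188 members, or 68.1%, whereas this held for 3.17% of all genes at 2 CPM or more in LE. It was at or below 0.25 of LE in 52 members, or 27.7%, beside a background of 0.572%. It was above LE in 4 members, or 2.13%, beside 51.5% of all genes. The LE libraries enter both the choice of members and this ratio, so that they are not independent.

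The level left with KU55933 was nevertheless not that of LPS alone. No member was lower in LEKU than with LPS. The LEKU level was at least 2-fold above LPS in 180 of 188 members, or 95.7%, beside 11.3% of all genes. It was at least 4-fold above in 146, for which no share of all genes was taken. The LPS level enters both the choice of members and this ratio, so that they are not independent. The genes set beside the members had no LPS limit, and their median was 31.3 CPM with LPS. The 8 members under 2-fold were Gria3, Gal, Adamts7, Cav2, Ak7, Myo15, Scml2 and Olfml2a. Measured by the thresholds of the choice, 56 members stayed at or above 2 CPM in LEKU, 123 lay between 0.5 and 2, and 9 returned below 0.5: Xirp1, Gal, A430034D21Rik, Wnt3, Cyp4f39, Adamts7, Rab44, Cav2 and Tmem151a. As a share of the difference between LE and LPS, the median member kept 33.6% on the linear scale and 65.9% on the log2 scale, since a gene that starts near 0 can lose much of its level and keep much of its fold.

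**Figure D2:**
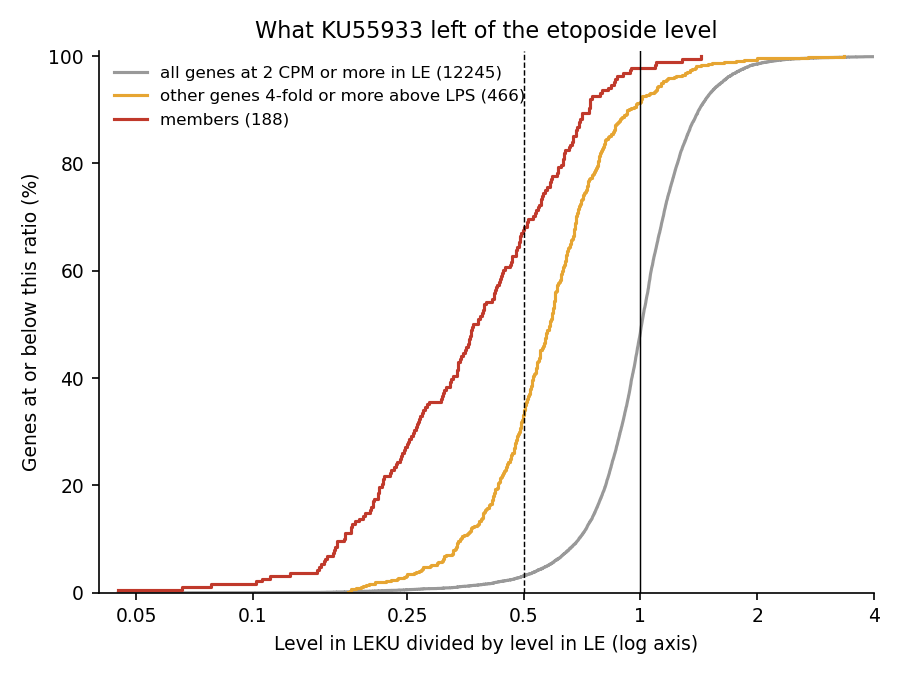
Cumulative share of genes (y axis, percent) against the level in LEKU divided by that in LE (x axis, log axis), for the 188 members, the 466 other genes at least 4-fold above LPS and all 12245 genes at 2 CPM or more in LE. The dashed line marks 0.5 and the solid line 1: the members cross 0.5 at 68.1%, the other genes far above LPS at 33.7% and all genes at 3.17%.

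Other genes with a large ratio of LE to LPS lay between the members and the rest. The 466 that were at least 4-fold above LPS kept a median of 58.4% of LE, and 157 of them, or 33.7%, were at or below 0.5. Within classes of the ratio of LE to LPS, the members and the other genes stood closer below 16-fold, whereas at 16-fold or more they stayed apart. From 4- to 8-fold, 29 members kept a median of 65.9% and 318 other genes 60.7%. Between 8- and 16-fold the medians were 44.1% for 60 members and 55.2% for 98 other genes. At 16-fold or more they were 27.4% for 99 members and 44.6% for 50 other genes, and 44 of those members against 3 of those other genes were at or below 0.25. The members were lower in LE than the other genes in each class, with a median of 5.10 against 43.3 CPM in the highest, and no test of these differences could be made.

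The members nearest complete loss were small in number and different in kind. Gal, the neuropeptide galanin, went from 0.0824 CPM with LPS to 3.31 in LE and 0.149 in LEKU, so that 4.49% was left (2.46 to 7.74%), on a fitted 3.46 counts per LEKU library. Cyp4f39, a cytochrome P450 of fatty acid hydroxylation, stood at 0.0766, 3.10 and 0.203 CPM and kept 6.57% (3.92 to 10.5%). Cnga3, a cyclic nucleotide-gated channel of cone photoreceptors, had the highest level in LE of the 5 members that lost most, at 0.117, 9.57 and 0.747 CPM, and kept 7.80% (6.07 to 10.0%). Xirp1, an actin-binding protein of striated muscle, kept 10.2% of 3.73 CPM, and Rab44, a large Rab GTPase, kept 10.6% of 2.65. These 5 do not share a family.

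At the other end, the 4 members above LE with KU55933 were all near the LE threshold. Ctsk, the collagen-degrading protease cathepsin K, stood at 0.474 CPM with LPS, 2.31 in LE and 3.30 in LEKU, or 143% of LE (120 to 170%). Popdc2, a membrane protein of heart and skeletal muscle, stood at 0.261, 2.36 and 3.03, or 128% (108 to 153%). The intervals of the pseudogene Gm5511, 110% (92.0 to 131%), and of Gm28582, 109% (91.4 to 130%), include 100%, and both were below LE when the columns were compared as deposited. Ak1, an adenylate kinase that balances adenine nucleotides, kept 94.6% (86.3 to 104%) of a higher level, 9.89 CPM.

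**Figure D3:**
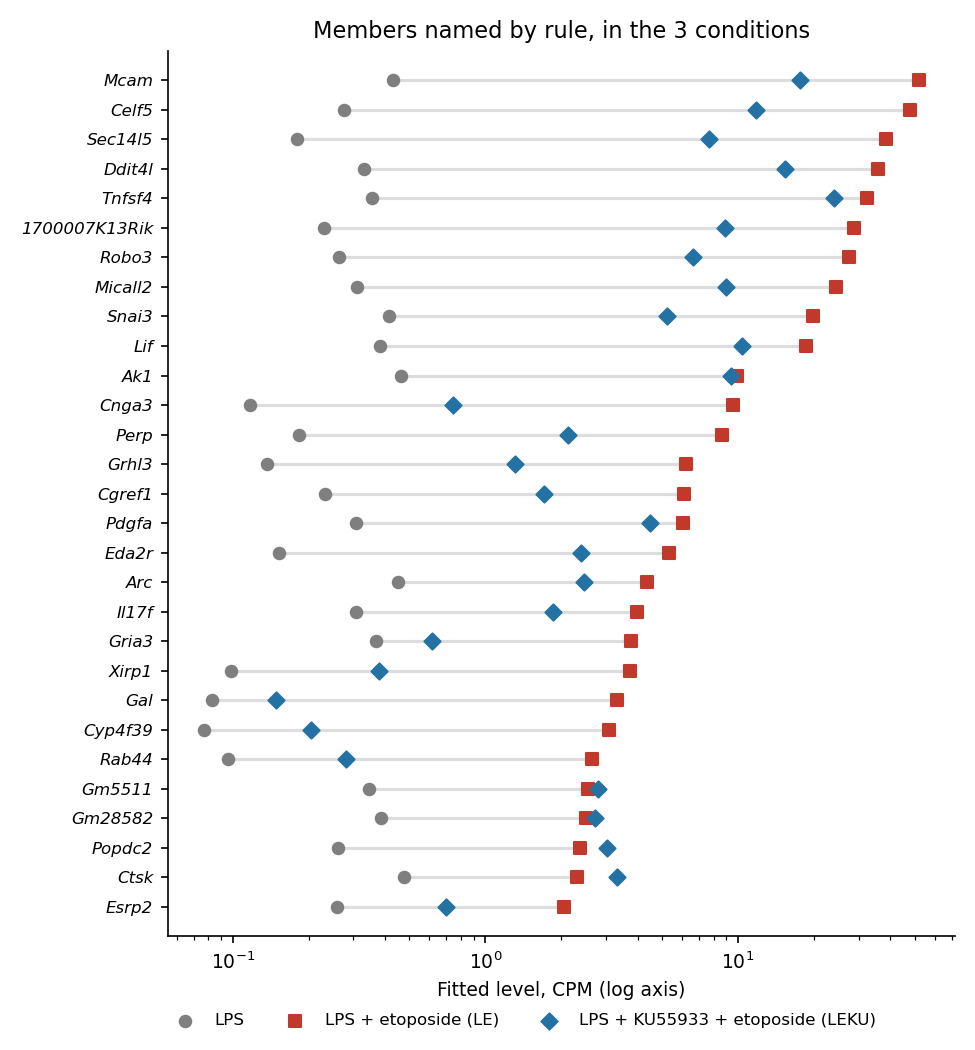
Fitted level in CPM (x axis, log axis) of 29 members named by rule (y axis), with LPS (grey circles), LE (red squares) and LEKU (blue diamonds). Each point stands for the 4 libraries of a condition, which share 1 fitted value, and a grey line joins LPS to LE; Gal and Gria3 lie less than 2-fold above LPS in LEKU, and Ctsk and Popdc2 lie right of LE.

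The members were sorted by the known role of their products, and these groups were drawn up after the values had been seen. The groups are described by counts of members and by medians, beside the 37.4% left over all members, and nothing particular to a group is read from them.

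Of the p53 response genes, 5 of the 77 on a list written from general knowledge were members: Ddit4l, Perp, Cgref1, Eda2r and Lif. Of the list, 13 genes were below 0.5 CPM with LPS, so that 38.5% of these were members, beside 1.21% of all such genes. With these 5 included, 69 genes of the list were at 2 CPM or more in LE, and 35 of those were at least 4-fold above LPS. The list was written with earlier results of these data known. Ddit4l, an inhibitor of mTORC1 signalling related to REDD1, stood at 0.331 CPM with LPS, 35.8 in LE and 15.3 in LEKU, and kept 42.7% (40.2 to 45.4%). Perp, a desmosome and apoptosis protein, kept 24.7% of 8.61 CPM, and Cgref1, a calcium-binding growth regulator, kept 28.1% of 6.09. Eda2r, the ectodysplasin A2 receptor, kept 44.8% of 5.35. The median of the 5 was 42.7%, whereas the 69 expressed genes of the list kept 67.6% at the median. Dram1, an autophagy regulator known as a p53 target but not on the list, stood at 0.279, 3.14 and 0.820 CPM and kept 26.1%.

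Ligands and secreted signals numbered 11 and had the highest median of the groups, 51.0%, although the range was wide, from 4.49% for Gal to 74.3%. The listed cytokines, chemokines and growth factors had 4 members of 79 in the table, 52 of which were below 0.5 CPM with LPS. Tnfsf4, the OX40 ligand by which antigen-presenting cells costimulate T cells, had the highest level of them in LE, at 0.355 CPM with LPS, 32.5 in LE and 24.0 in LEKU, and kept 73.8% (69.9 to 77.9%). Pdgfa, a platelet-derived growth factor chain, also kept much, 74.0% (65.2 to 83.9%) of 6.05 CPM. Lif, the leukaemia inhibitory factor, stood at 0.384, 18.6 and 10.4 and kept 55.5%, and Il17f, an inflammatory cytokine of T cells, kept 46.5% of 3.97. Cd70, the ligand of CD27, was at the edge of the choice with 2.01 CPM in LE and 1.27 in LEKU. Pgf, the placental growth factor, Wnt3, a Wnt ligand, and Tsku, a secreted inhibitor of several growth factors, lay at the low end: they kept 20.4% of 4.72, 14.7% of 3.21 and 21.1% of 11.1 CPM.

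Receptors, adhesion and junction proteins numbered 17, with a median of 33.8% left, and 15 of them were at or below 0.5 of LE. Mcam, the adhesion molecule CD146 best known from endothelium and melanoma, had the highest level in CPM of all members. Its fitted counts were 8.93, 9.91, 10.3 and 9.29 with LPS, 1172, 1313, 1591 and 1273 in LE and 358, 404, 433 and 440 in LEKU, which gave 0.431, 52.0 and 17.6 CPM. KU55933 left 33.8% (31.9 to 35.7%). Robo3, a guidance receptor of commissural axons, stood at 0.263, 27.5 and 6.61 CPM and kept 24.1% (22.0 to 26.3%), whereas its relatives Robo1 and Robo2 were at most 0.0459 CPM in every condition and Robo4 reached 0.866 in LE. Cd276, the immune regulatory protein B7-H3, kept 40.1% of 7.68 CPM. Ddr1, a collagen receptor kinase, kept 16.5% of 6.55, and Tgfbr3, the betaglycan co-receptor of TGF-beta, kept 16.1% of 3.64.

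Ion channels and their subunits were the group that KU55933 left least of, with a median of 17.3% over 6 members, of which 5 were at or below 0.25 of LE. Scn4b and Scn3b are beta subunits of voltage-gated sodium channels, small membrane proteins that tune channel gating and also act in adhesion. Scn4b stood at 0.443 CPM with LPS, 16.9 in LE and 3.10 in LEKU and kept 18.3% (16.2 to 20.8%). Scn3b stood at 0.137, 7.23 and 1.11 CPM and kept 15.4% (12.4 to 19.0%). By name, sodium and calcium channel genes were 4 of the 188 members and 13 of the 12245 genes at 2 CPM or more in LE. Potassium channel genes were also 13 of those 12245, or 0.106%, and none was a member. Nothing is read from such small numbers. Gria3, a subunit of AMPA glutamate receptors, kept 16.3% of 3.78 CPM, and Cacnb2, a calcium channel beta subunit, kept 58.4% of 2.08.

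The transcription regulators numbered 13, with a median of 38.0% left. Snai3, a zinc finger repressor of the Snail family, had the highest level in LE, at 0.415 CPM with LPS, 19.9 in LE and 5.23 in LEKU, and kept 26.3% (23.8 to 29.1%). Its relative Snai1 stood at 2.20, 6.71 and 6.19 CPM and Snai2 at 0.186, 0.135 and 0.207, so that members of the family differed. Rarg, the retinoic acid receptor gamma, stood at 0.492, 18.3 and 11.7 and kept 63.8% (59.1 to 68.8%), while Rara was 26.0, 23.5 and 22.8 CPM and Rarb at most 0.597. Heyl and Hey2, repressors that Notch signalling is known to induce, diverged from each other: Heyl kept 69.5% of 9.27 CPM (62.6 to 77.0%) and Hey2 kept 16.2% of 4.73 (12.4 to 20.7%). Grhl3, a regulator of epidermal barrier formation, kept 21.1% of 6.23 CPM.

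RNA-binding proteins were Celf5, Srsf12 and Esrp2. Srsf12, an SR-type splicing factor, kept 22.5% of 4.37 CPM, and Esrp2, an epithelial splicing regulator, kept 33.9% of 2.05. The span of Esrp2 overlapped Nfatc3 on the opposite strand, and Esrp2 had 0.934% of the 219 CPM of Nfatc3 in LE, so that its values are uncertain. Within the CELF family, Celf1 and Celf2 were abundant with LPS, at 396 and 274 CPM, and lower in LE, at 314 and 84.5. Celf4 lay just above the LPS threshold at 0.736 CPM, with 6.99 in LE and 1.65 in LEKU, a remainder of 23.6% that is close to the 24.6% of Celf5. Celf3, in contrast, stood at 0.622, 2.69 and 2.94, and Celf6 at most at 0.113. In the SEC14-like family, Sec14l3 missed the LE threshold with 0.0645, 1.23 and 0.293 CPM, Sec14l2 missed the LPS threshold with 0.631, 2.37 and 2.02, and Sec14l1 was 51.7, 42.2 and 80.7.

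Matrix proteins and enzymes acting on matrix numbered 11, with a median of 36.0% left. They ranged from the protease Adamts7, which kept 15.0% of 2.92 CPM, to Ctsk. Col18a1 and Col2a1, collagens of basement membrane and of cartilage, kept 47.8% of 3.52 and 63.6% of 3.27 CPM. Fkbp10 and Fkbp9, prolyl isomerases of the endoplasmic reticulum, of which Fkbp10 acts in collagen folding, kept 27.7% of 3.20 and 20.5% of 3.10. The fibroblast markers Col1a1, Col1a2, Dcn and Pdgfra were each at most 0.482 CPM in every condition.

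Motor, muscle and cilium proteins numbered 12 and kept a median of 26.7%, from 10.2% for Xirp1 to 128% for Popdc2. Kif17, a kinesin motor of dendrites and cilia, had the highest level, 11.2 CPM in LE with 1.75 in LEKU, or 15.6% (13.2 to 18.4%). Dnah10, an axonemal dynein heavy chain, kept 14.8% of 7.12 CPM. Tekt2, a tektin of sperm flagella, kept 94.1% of 2.86 (79.0 to 112%). Small GTPases and their regulators numbered 9 with a median of 36.1%, from Rab44 at 10.6% to Rnd1 at 84.0%, and 3 of them, Arhgef10l, Arhgef33 and Arhgef40, were guanine nucleotide exchange factors that kept 30.7 to 36.2%.

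Metabolic enzymes and transporters numbered 19 with a median of 43.7% left. Ckmt1, the mitochondrial creatine kinase, kept 43.7% of 13.9 CPM (39.6 to 48.2%). Ldhb, the lactate dehydrogenase subunit of heart, kept 17.3% of 6.55, and Slc2a4, the insulin-regulated glucose transporter GLUT4, kept 19.2% of 2.73. Amy1, whose amylase copies resemble each other and whose span overlaps Rnpc3, is uncertain. Of the members in no group, Micall2, an actin and Rab-binding protein of cell junctions, came after Sec14l5 in LE, at 0.310, 24.3 and 8.98 CPM, and kept 36.9% (34.1 to 39.9%). Arc, an immediate early gene of neurons, was the sole member of the 20 listed immediate early genes, and kept 56.2% of 4.37 CPM. Only 3 of the 20 were below 0.5 CPM with LPS and could be members, so that the share was 33.3%, beside 1.21% of all such genes. Of the list, 18 genes were at 2 CPM or more in LE, and 7 of those were at least 4-fold above LPS. Nothing is read from so few genes.

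**Figure D4:**
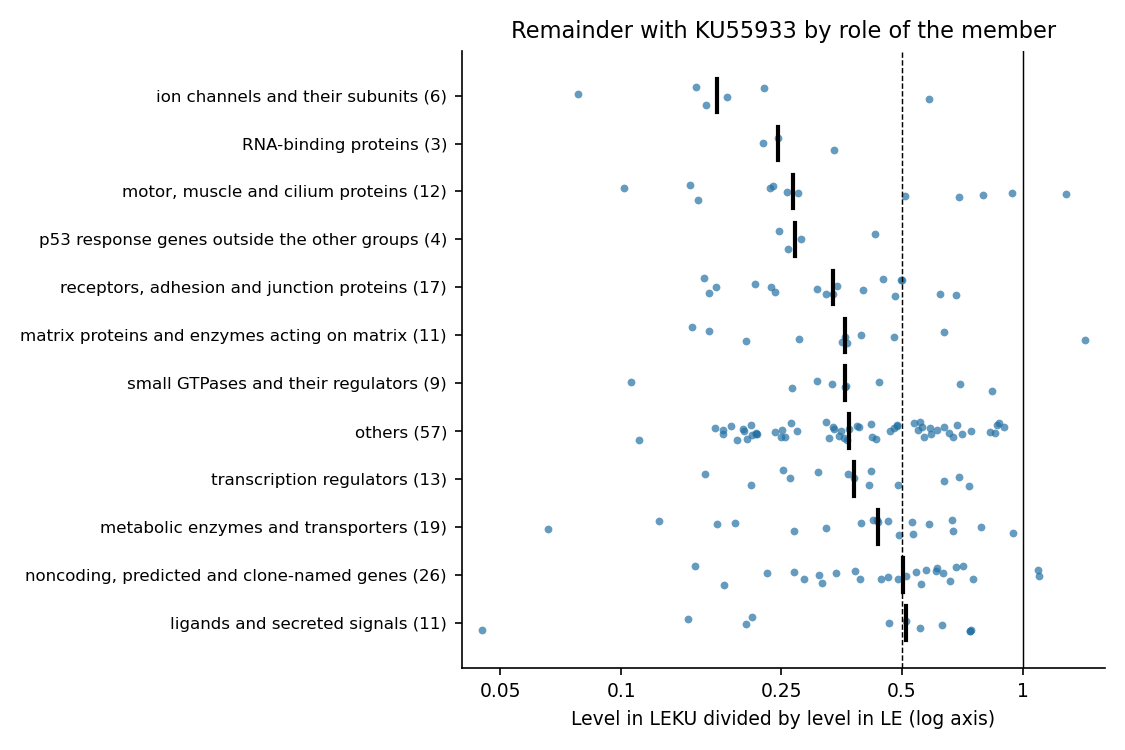
Level in LEKU divided by level in LE (x axis, log axis) for each of the 188 members, in 12 groups by the known role of the product (y axis, number of members in brackets). Points are members, black bars the medians, the dashed line 0.5 and the solid line 1; medians run from 17.3% of LE for the 6 ion channel genes to 51.0% for the 11 ligands, and the points of nearly every group spread widely.

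Members were also counted among listed genes of neuronal, muscle, epithelial and germ cell programmes. Of the 75 listed neuronal and synaptic genes below 0.5 CPM with LPS, 3 were members, namely Celf5, Sec14l5 and Gria3, or 4.00%. Celf5 and Sec14l5 had been named together with the rule of choice. The lists were written with earlier results of these data known, so that nothing is read from this share. Of the listed muscle genes, 2 of 39 were members, among them Xirp1, and of the epithelial genes 3 of 32 (Perp, Grhl3 and Esrp2), or 5.13% and 9.38%. None of 33 germ cell genes was a member, and no listed interferon-stimulated gene was below 0.5 CPM with LPS. The 1.21% of all such genes gives the background, and no test of the lists was made.

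By type, 169 of the 186 members matched to the annotation were protein-coding, or 90.9%, beside 88.2% of the genes at 2 CPM or more in LE. Long intergenic RNAs numbered 6, antisense RNAs 5, unconfirmed transcripts 4, and there were 1 processed transcript and 1 processed pseudogene, beside 4.92% processed pseudogenes among the genes at 2 CPM or more in LE. The 26 noncoding, predicted and clone-named genes kept a median of 50.2% of LE. Several lay within abundant genes that were themselves higher with etoposide. Gm12981 overlapped Sesn2, a stress-induced regulator of mTORC1, on the same strand, and had 2.13 CPM beside 366 for Sesn2, or 0.582% of its level. Gm26811 overlapped Plxna1 on the opposite strand and had 2.82 CPM in LE beside 235, and 2600006K01Rik overlapped Cercam and had 2.25 beside 71.3. Whether the counting used strand is not stated, so that the values of these and of other overlapping members are uncertain.

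Overlap touched a minority of members. The annotated span of 32 of 186 members, or 17.2%, overlapped that of another gene at 2 CPM or more in LE, beside 23.3% of all such genes. Such a gene lay within 10 kb upstream on the same strand of 50 members, or 26.9%, beside 18.0%. A gene at least 4-fold above LPS was overlapped by 5 members, or 2.69% beside 1.12%, and lay within 10 kb upstream on the same strand of 6 members, or 3.23% beside 0.943%. Among the latter, Klhl22 lay 3900 bases before Scarf2 at 17.0, 127 and 56.1 CPM, and Icam1 lay 3256 bases before Icam5 at 62.8, 308 and 189. Scarf2 and Icam5 had 2.98% and 1.08% of the LE level of these neighbours. Without overlapped genes, 154 members had a median ratio of LEKU to LE of 0.365, and 108 of them, or 70.1%, were at or below 0.5 of LE.

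Members lay on chromosomes 1 to 19 and X and formed no large cluster. Only 4 pairs of neighbouring members were within 50 kb of each other: A430034D21Rik and Gm37552 on chromosome 1, Spint1 and Rhov on chromosome 2, Gm37962 and Gm37621 on chromosome 9, and Tmprss7 and Tagln3 on chromosome 16. The gaps were 2194, 19673, 862 and 17571 bases. The pair A430034D21Rik and Gm37552, both long intergenic RNAs, stood at 3.24 and 3.44 CPM in LE and kept 15.3% and 18.0% with KU55933.

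A few genes outside the set had nearly its median profile. When the 3 levels of a gene were divided by their sum, the median member had 0.0398 of it with LPS, 0.686 in LE and 0.261 in LEKU. Among the other genes at 2 CPM or more in LE, Dmpk, Cercam and Gm9949 were nearest, at distances of 0.0148, 0.0167 and 0.0180 over the 3 conditions. Dmpk, the myotonic dystrophy kinase, stood at 1.01, 13.7 and 5.06 CPM, Cercam, a protein of the cell surface, at 3.34, 71.3 and 27.4, and Gm9949 at 0.759, 10.3 and 4.15.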

How the data were processed

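The authors isolated polyadenylated RNA, prepared stranded libraries, trimmed reads with Trim Galore and cutadapt 1.2.1, mapped them to GRCm38 with TopHat2 2.0.12, and used HTSeq counts on Ensembl 78 genes as input to DESeq2 1.6.3. Each deposited normalized value is a signal, namely a mean fitted for the condition and multiplied by the factor of its library. The authors' 3 deposited comparisons hold fold changes, standard errors, test statistics and p-values from the replicates and were not used, so that replicate error is not given here.

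Each column was divided by its sum and multiplied by 1000000, and the mean of the 4 columns of a condition was taken. The 95% interval of LEKU over LE is the exact Clopper-Pearson interval of the rounded sums of 4 fitted values, treated as reads, scaled by the library totals. Reads carried no molecular identifiers, so that it covers counting error only. The planned limma test needs values per replicate and was not run. Gene positions, types and exon lengths are from GENCODE M21 (same build), which matched 99.2% of genes and 186 of 188 members. Promoters are from RefSeq GRCm38.p6.

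Members and gene lists were chosen with earlier results of these data known. Named by rule were Sec14l5 and Celf5, the 10 members highest in LE, the 5 with the largest ratio of LE to LPS, the 5 with the least and the 5 with the most left, members on a list, the genes beside each threshold and the 3 nearest profiles. Results for some of these genes are not reported here. All other genes, the relatives and the groups by role were chosen after their values were seen. Computation was in Python 3.11.15 with pandas 2.3.3 and scipy 1.17.1, and the functions were tested on simulated counts. Alternatives were other scalings, thresholds, pseudocounts and fold limits, each library left out, and, added after the data were seen, members without overlap and protein-coding members.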

Additional observations from a re-analysis of the deposited data

How the results depend on the processing

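No paired analysis was possible because the columns of a condition are 1 fitted mean times a library factor, and a replicate number carries no value of its own. For the same reason, leaving out any of the 12 libraries left 188 members, 128 of them at least 2-fold lower with KU55933, a median ratio of LEKU to LE of 0.374 and a median share kept of 65.9% on the log2 scale (lowest and highest values alike). This shows nothing about replicate error.

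The median ratio of LEKU to LE stayed below 1 under every alternative run. The thresholds of the choice moved it most. An LPS threshold of 0.25 gave 90 members, 72 at least 2-fold lower, a median ratio of 0.276 and 61.9% kept on the log2 scale, and a threshold of 1 gave 396, 198, 0.502 and 69.9%. An LE threshold of 1 gave 479 members, 230 at least 2-fold lower and a median ratio of 0.520, and a threshold of 5 gave 54, 40 and 0.326. A pseudocount of 0.5 gave 0.451, a limit of 4-fold left 52 members, and the linear scale gave 33.6% kept.

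Scaling mattered less for the ratio. Median-of-ratios and TMM factors gave 168 and 172 members, all of them among the 188, and shares kept of 63.1% and 62.8%. They moved the median log2 ratio of LE to LPS over all genes at 2 CPM or more in LE by -0.22 and -0.18, and the columns as deposited moved it by 0.20 and gave 230 members. In the columns as deposited, which are not corrected for library size, Gm5511 and Gm28582 went from above LE to 0.994 and 0.988 of it. Of 90 single-gene ratios recomputed for 30 members, 78 stayed within their counting interval and 10 moved out of it in the same direction. Depth also limits the ratios of the members: the median counting interval spans 20.4% of the ratio to either side.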
